A study of Mus musculus with 8 samples.

Results

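Transcripts of the coenzyme Q synthesis genes were compared between fat from mice deficient in LPA4 and fat from wild-type mice. The genes were Pdss1, Pdss2, Coq2, Coq3, Coq4, Coq5, Coq6, Coq7 and Coq9, and their probe sets were taken by gene symbol from the platform annotation. In all, 8 of the 9 genes were matched, by 13 probe sets, among 18193 genes and 34945 probe sets that the annotation names with 1 gene. No probe set was matched to Pdss1, which was not analysed here. Each array held RNA of the epididymal fat pad, a white fat depot beside the testis, from 1 animal, with 4 LPA4-KO and 4 wild-type (WT) animals on Affymetrix 3′ expression arrays. The LPA4-KO animals carried Lpar4 -/Y, a deficient allele of the X-linked gene of a lysophosphatidic acid receptor, and the labels name no tissue in which the deficiency was induced. Both groups were male littermates of 12 weeks on a C57BL/6 background, fed standard chow. The comparison asked which transcripts differ in this depot when the receptor is deficient.

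Coenzyme Q is the lipid-soluble quinone of the inner mitochondrial membrane that takes electrons from complex I, complex II and several other dehydrogenases and gives them to complex III. Its isoprenoid tail is assembled by the PDSS1 and PDSS2 prenyltransferase from products of the mevalonate pathway, and COQ2 joins this tail to a ring derived from tyrosine. The ring is then hydroxylated and methylated on the matrix side of the membrane by enzymes that gather in a complex, among them COQ3, COQ5, COQ6 and COQ7, with COQ4 and COQ9 as further members. Fat cells depend on this carrier for mitochondrial oxidation, and lower mitochondrial coenzyme Q has been reported in insulin-resistant adipocytes.

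The promoters of the 3 genes whose LPA4-KO and WT arrays did not overlap (Coq7, Coq9 and Coq3, described below) are shown to let the stretches before their starts be set side by side. Each runs from 250 bases before to 50 bases after an annotated start, 5′ to 3′ on the strand of the gene, from RefSeq on GRCm38.p6. Coq7 lies on the minus strand (chr7:118533307-118533606), Coq9 on the plus strand (chr8:94838163-94838462), and the downstream of the 2 listed Coq3 starts on the plus strand (chr4:21879603-21879902). Capitals mark matches to the motifs named after them.
Coq7: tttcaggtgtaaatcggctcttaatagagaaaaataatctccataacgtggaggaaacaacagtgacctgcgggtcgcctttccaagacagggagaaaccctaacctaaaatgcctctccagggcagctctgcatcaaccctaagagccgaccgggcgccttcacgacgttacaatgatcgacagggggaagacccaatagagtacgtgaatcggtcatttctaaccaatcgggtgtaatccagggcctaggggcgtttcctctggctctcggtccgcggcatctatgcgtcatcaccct
Coq9: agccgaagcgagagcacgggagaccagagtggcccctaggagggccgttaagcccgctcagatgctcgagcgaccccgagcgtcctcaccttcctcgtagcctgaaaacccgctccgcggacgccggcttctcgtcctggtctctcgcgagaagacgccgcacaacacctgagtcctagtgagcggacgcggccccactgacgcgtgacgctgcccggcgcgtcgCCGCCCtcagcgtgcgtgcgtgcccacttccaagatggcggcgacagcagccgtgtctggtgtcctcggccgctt
Coq3: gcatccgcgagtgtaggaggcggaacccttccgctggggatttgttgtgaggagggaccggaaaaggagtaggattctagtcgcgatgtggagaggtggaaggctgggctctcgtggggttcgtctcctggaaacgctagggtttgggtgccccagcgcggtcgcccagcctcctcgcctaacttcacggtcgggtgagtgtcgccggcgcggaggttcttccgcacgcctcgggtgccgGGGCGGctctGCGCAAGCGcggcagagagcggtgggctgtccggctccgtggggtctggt

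Motifs of 5 kinds of factor often placed before mitochondrial genes were searched on both strands in the 9 promoters listed for 8 of the 9 genes, and in all 32851 promoters of the table. The Sp1 GC box (GGGCGG) was in 4 of the 9, including those of Coq9 and Coq3 above, and in 35.7% of all promoters. The NRF1 core (GCGCANGCG) was in 1 of the 9, the Coq3 promoter above, and in 6.25% of all. The ETS core bound by GABP (CCGGAAG) was in 3 of the 9, those of Coq6, Pdss1 and Pdss2, and in 8.86% of all. The E-box (CACGTG) was in 1 of the 9, that of Coq4, and in 7.15% of all, and the ERR site (TNAAGGTCA) was in none of the 9 and in 1.28% of all. The Coq7 promoter held none of these letters, so no motif of the 5 was common to the 3 promoters shown. No listed motif overlapped another in these 9 promoters.

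Values and differences (LPA4-KO minus WT) are given in log2 units, as read from the deposited table. Most probe sets in this table were nearly constant. A probe set was called varying when its highest and lowest arrays lay more than 0.1 log2 apart, and 19.1% of the named probe sets did. The number of arrays, 4 in each group, limits the precision. At Lpar4 probe set 1452424_at the LPA4-KO arrays (5.74 to 5.86) lay below the WT arrays (6.48 to 6.54), with a difference of -0.71 ± 0.03 log2 (SE, adjusted p = 0.00334 over all named probe sets). The other 2 Lpar4 probe sets overlapped between groups, with higher LPA4-KO means and neither called. The differences were 0.68 ± 0.24 log2 at 1434186_at (SE, adjusted p = 0.233) and 0.48 ± 0.25 log2 at 1439665_at (SE, adjusted p = 0.392). The sources used here do not give where any of them lies relative to the deleted part. The 10 measured adipocyte markers had mean values of 10.08 (Lep) or more, with Car3 the highest, while the 6 of epididymis and testis were nearly constant at 5.92 to 6.62.

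**Figure D1:**
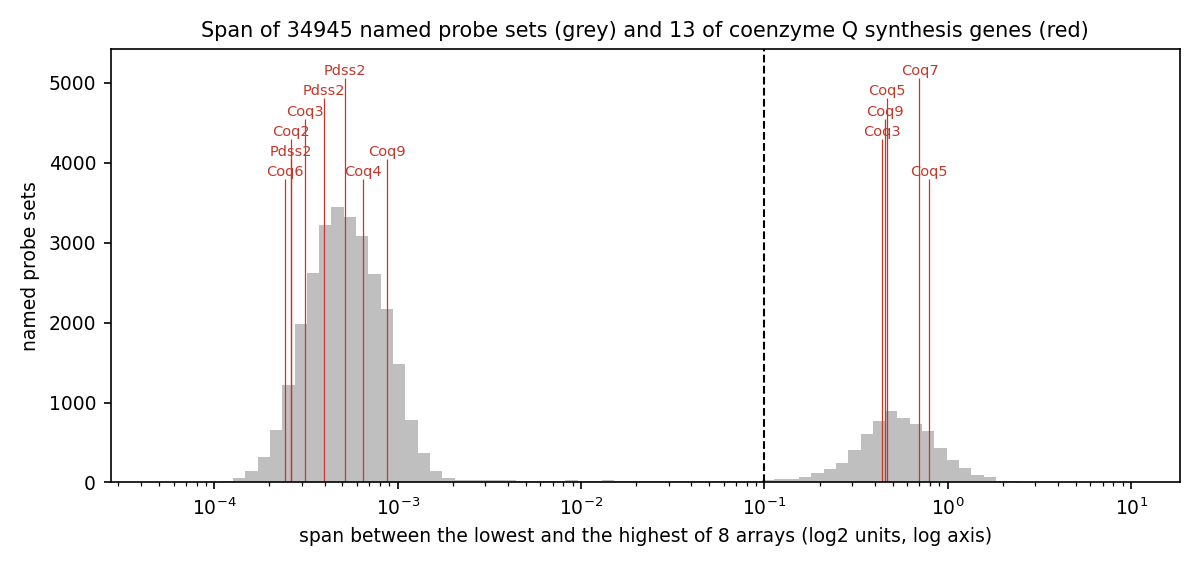
The span between the lowest and the highest of the 8 arrays (x axis, log2 units on a log axis) for 34945 named probe sets (grey bars, y axis: number of probe sets) and for the 13 probe sets of coenzyme Q synthesis genes (red lines with gene names). The dashed line is the limit of 0.1; 5 of the 13 lie to its right, and the other 8 lie in the peak of nearly constant probe sets.

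In LPA4-KO fat, Coq7 and Coq9 were higher, by 1.39-fold and 1.28-fold. The RNA is of whole tissue, in which a change in the share of a cell type and a change in RNA per cell cannot be told apart. COQ9 is a lipid-binding protein that binds COQ7 and is needed for its activity, so these are the genes of a hydroxylase and of its partner. Coq3 was 1.20-fold higher without passing the test over all genes, Coq5 overlapped between groups, and Coq2, Coq4, Coq6 and Pdss2 were nearly constant over all 8 arrays. Thus 2 of the 8 measured genes rose and 0 fell at an adjusted p under 0.05 over all 18193 genes, where 0.863% of all genes rose. When each of the 34945 named probe sets was tested on its own, 2 of the 13 rose (the same probe sets of Coq7 and Coq9), against 0.612% of all. At an unadjusted p under 0.05 there were 4 of the 8, all with LPA4-KO higher, the fourth after Coq7, Coq9 and Coq3 being the nearly constant Pdss2 (0.000244 log2). Over all genes 17.6% had such a p in either direction, and 10.1% with LPA4-KO higher. The median difference over the 8 genes was 0.13 log2, midway between Coq3 and a nearly constant gene, beside 3.96e-05 over all genes.

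**Figure D2:**
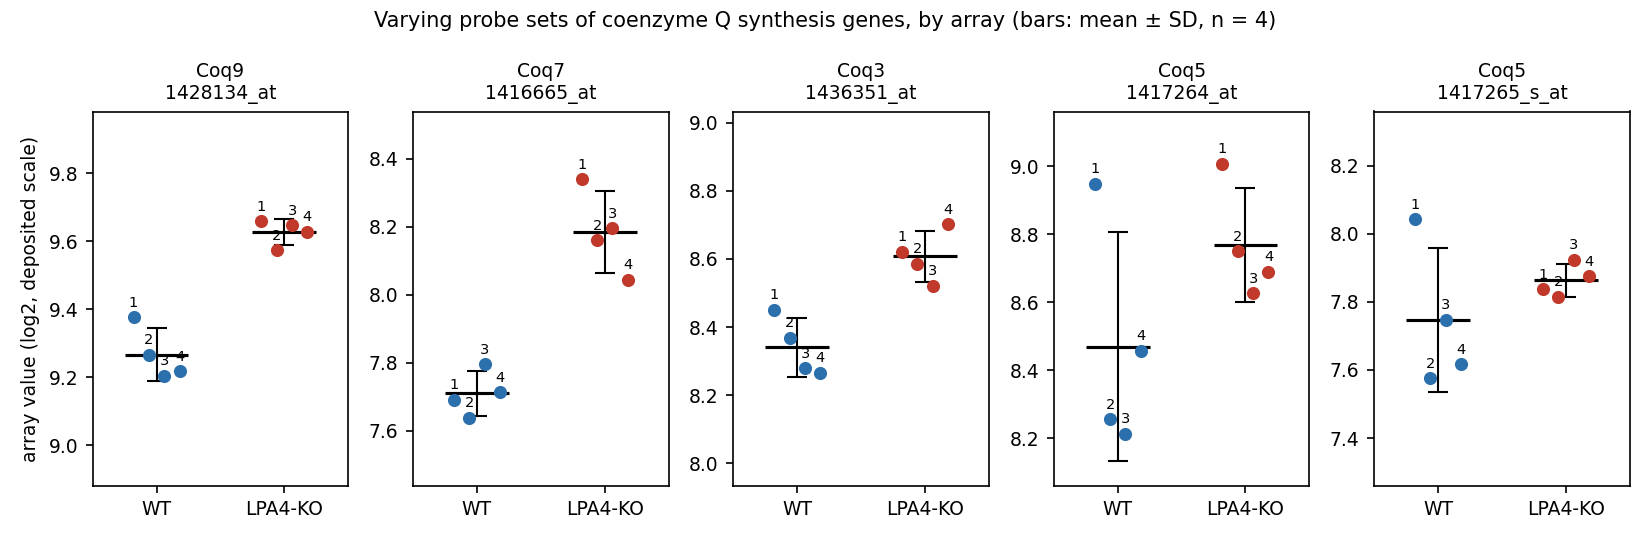
Array values (y axis, log2, deposited scale; each panel covers the same height) of the 5 varying probe sets of coenzyme Q synthesis genes in WT (blue) and LPA4-KO (red) mice. Points are arrays with their replicate number, lines are means and bars are SD (n = 4); the groups are apart for Coq9, Coq7 and Coq3 and overlap at both Coq5 probe sets, where WT replicate 1 stands above the other WT arrays.

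Coq7 encodes the hydroxylase of the last hydroxylation of the ring. At its probe set 1416665_at the LPA4-KO arrays read 8.34, 8.16, 8.20 and 8.04 in replicates 1 to 4, and the WT arrays 7.69, 7.64, 7.80 and 7.71. The lowest LPA4-KO array thus stood above the highest WT array, and LPA4-KO replicate 1 was the highest of all. The means were 8.18 ± 0.12 and 7.71 ± 0.07 (SD, n = 4). The difference was 0.48 ± 0.07 log2 (SE, adjusted p = 0.0363), and the exact two-sided permutation p was 0.0286, the smallest that 4 against 4 arrays allow. The call needed all 8 arrays: with any 1 array left out the adjusted p over all genes ran from 0.0646 to 0.102, while the difference stayed between 0.42 and 0.52.

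Coq9 was measured by a pair of probe sets of different behaviour. At 1428134_at the LPA4-KO arrays read 9.66, 9.57, 9.65 and 9.63, and the WT arrays 9.38, 9.27, 9.20 and 9.22. The groups were apart, with a tight LPA4-KO group and WT replicate 1 nearest to it. The means were 9.63 ± 0.04 and 9.27 ± 0.08 (SD, n = 4), and the difference was 0.36 ± 0.04 log2 (SE, adjusted p = 0.0292, exact permutation p = 0.0286). The call was kept without WT replicate 1 (adjusted p = 0.0202) and was lost without any other single array, where the difference lay between 0.34 and 0.38 and the adjusted p between 0.065 and 0.0804. The second Coq9 probe set, 1445313_at, was nearly constant at 6.26 on every array. It therefore showed no difference between genotypes on this scale.

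Coq3 encodes the methyltransferase that methylates the product of COQ7. At 1436351_at the LPA4-KO arrays read 8.62, 8.59, 8.52 and 8.70, and the WT arrays 8.45, 8.37, 8.28 and 8.27. Here too the groups were apart, by a small gap between LPA4-KO replicate 3 and WT replicate 1. The means were 8.61 ± 0.08 and 8.34 ± 0.09 (SD, n = 4), with a difference of 0.27 ± 0.06 log2 (SE, exact permutation p = 0.0286). Groups of 4 that do not overlap always give that permutation p, for Coq7 and Coq9 as well, so it only restates their separation. The adjusted p over all genes was 0.0819, so the gene was not called. It was called in a fit restricted to the 4029 varying genes, which takes its estimate of the spread from those genes (adjusted p = 0.0293, SE 0.07 log2). The limit on the span favours genes that differ between groups, so adjusted p-values of that fit, here and below, are no separate support. The other Coq3 probe set, 1437364_at, was nearly constant at 6.99.

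Coq5 encodes a methyltransferase that acts earlier on the ring. At 1417264_at the LPA4-KO arrays read 9.01, 8.75, 8.63 and 8.69, and the WT arrays 8.95, 8.26, 8.21 and 8.46. WT replicate 1 lay above 3 of the 4 LPA4-KO arrays, and the other WT arrays lay below all of them. The means were 8.77 ± 0.17 and 8.47 ± 0.34 (SD, n = 4), and the difference of 0.30 ± 0.18 log2 did not pass (SE, adjusted p = 0.456, exact permutation p = 0.171). Without WT replicate 1 the difference was 0.46 log2, with an adjusted p of 0.14 over all genes and 0.0252 among the varying genes. Of the 8 fits of varying genes with 1 array left out, only this 1 called Coq5 (adjusted p up to 0.376). Over all genes 0 of the 8 did. At the other Coq5 probe set, 1417265_s_at, whose name marks probes that can match more than 1 transcript, the LPA4-KO arrays read 7.84, 7.82, 7.92 and 7.88 and the WT arrays 8.04, 7.58, 7.75 and 7.62. WT replicate 1 was the highest of all 8 arrays there, while LPA4-KO replicate 1 was not raised within its group. The difference was 0.12 ± 0.10 log2 (SE, adjusted p = 0.638 in the fit of every probe set, exact permutation p = 0.314).

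The genes of the first steps showed no variation that could be compared. Pdss2, a subunit of the enzyme that makes the tail, had 3 probe sets, at 5.95, 7.35 and 5.80 on all arrays. Coq2, whose product joins tail and ring, stood at 9.17. Coq6, the gene of an earlier ring hydroxylase, stood at 7.84, and Coq4, whose product acts in the assembly of the enzyme complex, at 7.39. The spans of these 6 probe sets were 0.000244 to 0.000645 log2. Among nearly constant named probe sets the median span was 0.000519 log2, so these values are typical of the table and cannot be read as measured stability of the transcripts.

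Among the 4 varying synthesis genes 3 had groups that did not overlap, with LPA4-KO higher (Coq7, Coq9 and Coq3). Over the 4029 varying genes this held for 14.4%. In the fit of varying genes alone the same 3 of these 4 genes were called higher, where 9.78% of the genes tested were. A gene that differs between groups passes the limit on the span more readily, so these counts describe the 4 genes that passed it and not all 8. With 1 array left out of that fit, a check added after seeing the data, Coq7 and Coq9 were called in all 8 fits (adjusted p at most 0.0234 and 0.0315) and Coq3 in 3 of 8.

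The arrays did not rank alike in the different genes. WT replicate 1 was the highest WT array for Coq3, Coq5 and Coq9 but not for Coq7, where WT replicate 3 was. Within LPA4-KO, replicate 1 was the highest array for Coq7, Coq9 and Coq5 at 1417264_at, and replicate 4 was the highest for Coq3 and the lowest for Coq7. The SD within groups was 0.04 to 0.12 log2 for Coq7, Coq9 and Coq3, and 0.05 to 0.34 log2 at the Coq5 probe sets.

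The other genes of coenzyme Q supply and use were taken from 7 lists with 66 measured genes, of which 3 rose and 0 fell: Etfdh, Cyc1 and Vdac2. Over all genes 0.863% rose. None of 11 kinases, chaperones and partners of the synthesis enzymes passed in limma's test (4 at an unadjusted p under 0.05, against 17.6% of all genes). The smallest p-values there belonged to Coq8b, the gene of a kinase-like protein of the complex, and Adck1, of the same family, both nearly constant (differences of 0.000239 and 0.000339 log2). The others of the 4, named here after their values were seen, varied and went in opposite directions. These were Coq10b (0.37 ± 0.13 log2, adjusted p = 0.221) and Fdx1 (-0.23 ± 0.09 log2, adjusted p = 0.252). The median difference of that list was 0.000239 log2 over its measured genes and 0.064 log2 over the 5 that varied. Here and for the mevalonate, isoprenyl and tyrosine lists below, the median over measured genes fell on a nearly constant gene. It therefore cannot be read as stable transcripts or set against the medians of lists that mostly varied.

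The mevalonate pathway, which supplies the tail, gave 0 of 7 in limma's test, with a median of 0.000133 log2. An unadjusted p under 0.05 was found for 3 of the 7, 2 higher and 1 lower in LPA4-KO, against 17.6% of all genes. Ggps1, which makes geranylgeranyl diphosphate, differed by 0.23 ± 0.06 log2 (adjusted p = 0.110), and its arrays did not overlap. Fdps, the farnesyl diphosphate synthase gene, was nearly constant (0.000842 log2). In the fit of varying genes alone 1 gene of the list was called, Hmgcs1 (-0.64 ± 0.21 log2 over all genes, adjusted p = 0.0335 among varying genes), an earlier enzyme of the pathway that is named here after its value was seen. That fit called 465 of all 4029 varying genes lower. Other users of isoprenyl diphosphates gave 0 of 9, with a median of 0.000181 log2. Of these, 2 had an unadjusted p under 0.05, both higher in LPA4-KO, against 17.6% of all genes. Cox10, of heme A synthesis, was nearly constant (0.00035 log2), and Fnta, a farnesyltransferase subunit, differed by 0.18 ± 0.07 log2 (adjusted p = 0.273).

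Tyrosine breakdown and methyl donors of the ring gave 0 of 5 in limma's test, with a median of -0.00016 log2. Of these, 2 had an unadjusted p under 0.05, both lower in LPA4-KO, against 17.6% of all genes. Ahcy, which hydrolyses the S-adenosylhomocysteine left by methyltransferases, differed by -0.47 ± 0.16 log2 (adjusted p = 0.214 over all genes and 0.0479 among the varying genes). Hpd, a dioxygenase of tyrosine breakdown, was nearly constant (-0.000337 log2).

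Among 14 dehydrogenases that pass electrons to coenzyme Q, 1 rose. Of the 14, 10 had an unadjusted p under 0.05, all with LPA4-KO higher, as did 10.1% of all genes. The 10 include the nearly constant Dhodh (0.00177 log2). Of the 14, 12 varied, as did most genes of the complex III and mitochondrial mass lists below. Among the 4029 varying genes, 779 had such a p with LPA4-KO higher. The median difference of the dehydrogenases was 0.21 log2. Etfdh, the flavoprotein dehydrogenase that hands electrons from fatty acid oxidation to coenzyme Q, read 10.03, 10.03, 10.04 and 10.09 in LPA4-KO and 9.77, 9.77, 9.64 and 9.60 in WT arrays. Its groups were apart and the LPA4-KO arrays nearly equal. The difference was 0.35 ± 0.04 log2 (SE, adjusted p = 0.0312), which was 1.28-fold. With the mean of all its probe sets the difference was 0.18 log2 (adjusted p = 0.0302). The fit of varying genes alone called 3 of this list higher, and 3 each of the complex III and mitochondrial mass lists below, against 9.78% of all varying genes.

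In complex III, which takes electrons from coenzyme Q, 1 of 9 genes rose. Of these 9, all varying, 5 had an unadjusted p under 0.05 with LPA4-KO higher. Such a p was found for 10.1% of all genes and for 779 of the 4029 varying genes. The median difference of the 9 was 0.19 log2. Cyc1, the cytochrome c1 gene, read 10.71, 10.64, 10.61 and 10.75 in LPA4-KO and 10.23, 10.37, 10.33 and 10.30 in WT arrays. The groups were again apart, with a difference of 0.37 ± 0.04 log2 (SE, adjusted p = 0.0292), which was 1.29-fold. Of 11 genes listed as measures of mitochondrial mass 1 rose, Vdac2, a channel of the outer membrane (0.19 ± 0.03 log2, adjusted p = 0.0398), and 7 had an unadjusted p under 0.05 with LPA4-KO higher, again against 10.1% of all genes. The list's median was 0.16 log2. Calls over all genes were lost when single arrays were left out for Cyc1 and Vdac2 in all 8 fits and for Etfdh in 7 of 8, all but the one without WT replicate 1.

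**Figure D3:**
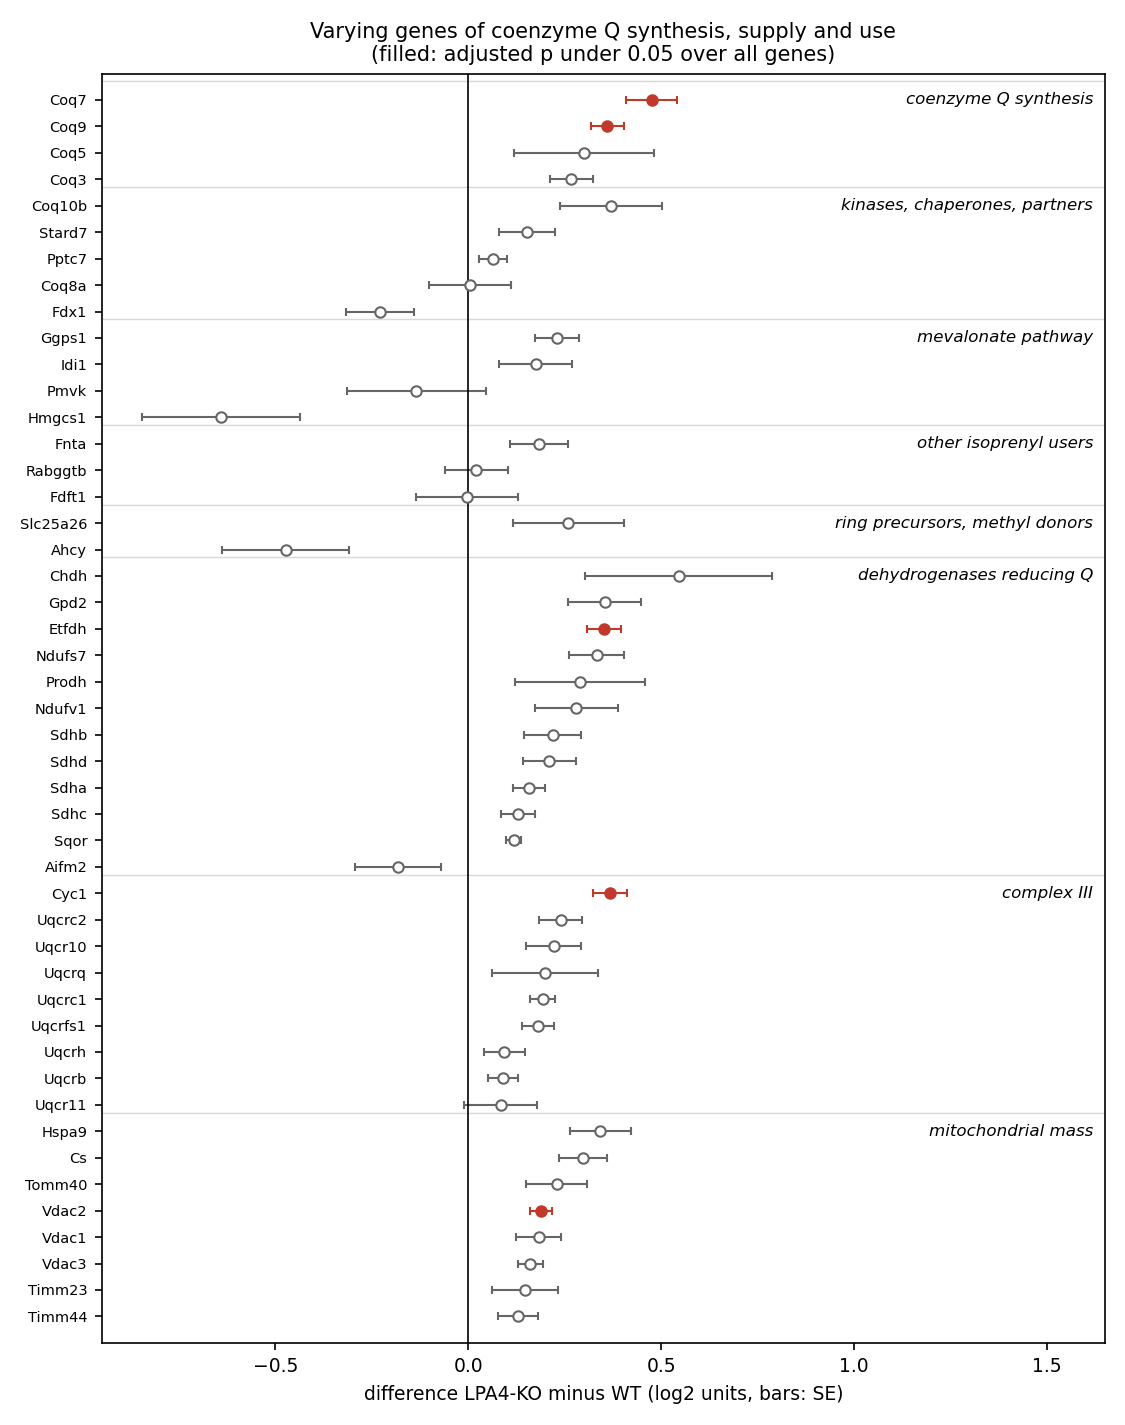
Difference LPA4-KO minus WT (x axis, log2 units; bars are SE) of the varying genes of coenzyme Q synthesis and of 7 lists of supply and use (y axis, 1 gene per line, grouped by list). Filled points passed an adjusted p of 0.05 over all 18193 genes: Coq7, Coq9, Etfdh, Cyc1 and Vdac2; nearly constant genes are not drawn.

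Each varying synthesis gene was also set, within each array, against the mean of the varying genes of the mitochondrial mass and complex III lists, in each of which 1 gene was called. This is a description without a test, added after the values were seen. The nearly constant Tfam, Tomm20 and Tomm22 were left out of the mass mean. The limit on the span favours genes that differ between groups, so that mean is no neutral measure of mitochondrial mass. The mean of the 8 varying mitochondrial mass genes was 0.21 log2 higher in LPA4-KO, and that of the 9 complex III genes 0.19 log2 higher. Relative to the mass genes, Coq9 was 0.15 log2 higher in LPA4-KO and its groups stayed apart, Coq7 was 0.27 log2 higher with groups that overlapped, Coq5 was 0.09 log2 higher and Coq3 0.06 log2 higher, both with overlap. Relative to the complex III genes, Coq7 was 0.29 log2 higher with its groups apart, and Coq9 (0.17), Coq5 (0.11) and Coq3 (0.08) overlapped.

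Few markers of other cells of the pad passed the test, while many had means on the same side. All 7 measured markers of progenitors and fibroblasts had a lower mean in LPA4-KO, and the mean of the list ran from 8.97 to 9.28 on the LPA4-KO arrays and from 9.42 to 9.70 on the WT arrays. So had all 8 mesothelial markers, with list means of 7.62 to 8.15 in LPA4-KO and 7.9997 to 8.83 in WT, and the 7 varying macrophage markers of 8 (9.73 to 9.91 against 9.89 to 10.08). The means of the fibroblast list alone were apart between the groups, and those of the other two overlapped. Of these 3 lists 1 gene fell, the fibroblast gene Dpt. The adipocyte list overlapped between groups (12.42 to 12.49 against 12.32 to 12.51), and none of its genes was called. Of its 6 varying markers 5 had a higher LPA4-KO mean and 1 a lower. Of 4 varying endothelial markers 3 were lower and 1 higher, both varying lymphocyte markers were lower, and skeletal muscle had 1 of each, none called. Over all 4029 varying genes 2153 were lower and 1876 higher. Of the 6 brown or beige fat markers 2 varied, both with a higher LPA4-KO mean and neither called (Cidea 0.28 and Cox8b 0.41 log2), while Ucp1 and the other three were nearly constant. The mean of that list ran from 6.47 to 6.73 on the LPA4-KO arrays and from 6.41 to 6.47 on the WT arrays, with a slight overlap. The part of these markers in the synthesis gene results was not tested.

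Coq9 had the smallest p of the synthesis genes, and the other 4025 varying genes were ranked by how close their profile over the 8 arrays, centred on its mean, came to that of Coq9. The closest by root mean square distance were Idh3a (0.0405 log2), Elavl1 (0.0418), Etfdh (0.0421), Cdkn2c (0.0431) and Dzip3 (0.0448), against a median of 0.252 over all of them. Each of these 5 genes was called higher, with differences of 0.32 to 0.37 log2, a direction that likeness to Coq9 favours by itself. With 1 array left out the call was kept in 2 of 8 fits for Cdkn2c, in 1 for Elavl1 and for Etfdh, and in 0 for Idh3a and Dzip3 in limma's test (adjusted p at most 0.116 and 0.0895). With the mean of all probe sets of a gene, Idh3a (0.15 log2, adjusted p = 0.0798), Elavl1 (0.09 log2, 0.0838) and Dzip3 (0.08 log2, 0.196) were not called. Of the synthesis genes Coq3 lay closest to Coq9 (0.0715), with 49 other genes nearer, and Coq7 (0.117) and Coq5 (0.195) lay farther, with 338 and 1295 genes nearer.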

How the data were processed

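RNA from 8 fat pads was measured with 1 array each, and samples were grouped by the genotype in their titles. The authors deposited 1 log2 value per probe set and array; R 2.14.0 is the tool the submitters' processing notes name, and background correction, normalization, summarisation and log base were not given in the sources used here. Values of 5.27 to 14.07 were taken as log2, and folds rest on that. Gene names came from the platform annotation, and 34741 probe sets matched RefSeq by Entrez number. For a gene with several probe sets the one of highest mean level stood for it.

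LPA4-KO was tested against WT by limma 3.58.1 (R 4.3.3; lmFit, eBayes with a trend), with p-values adjusted by Benjamini-Hochberg over all genes. The scripts were tested on simulated data. Exact permutation tests used all 70 arrangements. The replicates are separate mice. Named genes were all synthesis genes, and in each other list the called genes or else the 2 with the smallest p, plus Lpar4 and the 5 varying genes nearest in profile to the synthesis gene of smallest p. The members, the lists and the limit of 0.1 log2 were chosen with earlier results of these data known. Alternatives were other filters, scalings, variance models, weights, a replicate block, left-out arrays, probe set means and thresholds.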

Additional observations from a re-analysis of the deposited data

How the results depend on the processing

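In limma's fits over all genes, the 4 varying synthesis genes kept their direction under every alternative run. Over all 8 measured synthesis genes, the count called (2) was 5 after quantile normalization. Coq5 was not called there (adjusted p = 0.139 in limma's test), so the 5 include nearly constant genes. The count was 0 with the replicate block (5 at an unadjusted p under 0.05) and 0 at an adjusted p under 0.01. With an array left out it was 0 to 1 (3 or 4 at an unadjusted p under 0.05 in the fits with 0). The matching count over the 13 probe sets (2) was 8, nearly constant ones included, then 0 (6 unadjusted), 0, and 0 to 1. Among varying genes alone it was 3 genes, 2 with the replicate block and 2 to 4 with an array left out, the 4 without WT replicate 1. The count of genes of supply and use (3) was 6 above the median level, 6 with array weights, 41 after quantile normalization, 0 with the replicate block (30 unadjusted), 0 to 2 with an array left out, 11 among varying genes, 14 and 16 there with quantile normalization and with centring, 0 at 0.01 and 12 at 0.1. Quantile normalization shifted the median of all genes by 0.0052 log2 and called 8799 genes higher and 637 lower, nearly constant ones included, against 157 and 82. Nearly constant Hpd took values of 0.0156 log2 after quantile normalization and 0.0041 log2 after median centring, which moved the median of all genes by 0.0044 log2, so its sign is not informative. Taking the mean of all probe sets gave 0.18 log2 for Coq9, 0.13 log2 for Coq3, 0.18 log2 for Etfdh and 0.09 log2 for Ggps1; Coq9 and Coq3 each have a nearly constant second probe set. Same-numbered arrays of the groups correlated at 0.018, 0.078, 0.24 and -0.18 in their deviations from the group means over varying genes, so the numbers were not taken as pairs.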
